A study of Homo sapiens with 11 samples.

Results

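The 10 tubulin genes described here encode 4 alpha-tubulins (TUBA1A, TUBA1B, TUBA1C and TUBA4A), 5 beta-tubulins (TUBB, TUBB2A, TUBB3, TUBB4B and TUBB6) and the gamma-tubulin TUBG1. They were taken by symbol. Among the probe sets listed with a gene's symbol alone, the brightest by its average over the 11 arrays was read. All 10 were measured, out of 19775 genes on the arrays. The cells were Reh, an established B-cell precursor leukaemia line carrying the ETV6-RUNX1 fusion, infected with virus so that they stably expressed miR-125b. Onto these cells the study transfected oligos, as precursors, of miR-99a (3 arrays), of miR-100 (3 arrays), of the combination of both (3 arrays) or of a scrambled sequence, called control (2 arrays). Single and scrambled oligos were given at 66 µM and each oligo of the combination at 33 µM, a second dose followed after 72 h, and cells were collected 48 h after that. Every group therefore shares the line and the stable miR-125b, the labels give no vincristine exposure for the profiled cells, and cells without stable miR-125b were not analysed here. The labels do not say whether replicates came from separate cultures, so p-values may measure technical spread.

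Alpha- and beta-tubulin form the dimers from which microtubules are built, and gamma-tubulin, in a ring complex, starts new microtubules. Microtubules make up the mitotic spindle. Vincristine, a drug used against acute lymphoblastic leukaemia, binds beta-tubulin at the interface between dimers and blocks spindle assembly in dividing cells. Isotypes are products of separate genes with closely similar proteins. Cells also adjust tubulin messenger RNA to the amount of free dimer, by degrading the message while it is translated. The series asked how these microRNAs change gene expression and resistance to vincristine, and tubulin is the protein that drug binds.

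The transfected microRNAs are shown because they define the groups. The labels do not name an arm, and the 5p forms from RefSeq (GRCh38.p14) are printed 5′ to 3′ with the seed, bases 2 to 8, in capitals.
miR-99a-5p: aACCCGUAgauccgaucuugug
miR-100-5p: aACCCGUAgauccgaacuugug
miR-125b-5p: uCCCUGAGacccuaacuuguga
The first lies at chr21:16539101-16539122 on the plus strand, within MIR99A, and the second at chr11:122152275-122152296 on the minus strand, within MIR100. They share a seed and differ by U16A, counted from the 5′ end of miR-99a-5p. The sequence of miR-125b-5p, which all groups carried, has another seed and is encoded by both MIR125B1 and MIR125B2.

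Values are log2 signals as deposited. A probe set's brightness depends on its probes, so tubulin genes were not ranked against each other. Because such signals can drift between arrays with brightness, each tubulin gene was set beside the other genes of like signal, those whose mean over the 11 arrays lay within 0.5 of its own. Array correlations over all genes were 0.989 to 0.998. The arrays numbered replicate 3 stood apart: across treatments they correlated at 0.998 or more, and with the other arrays of the same treatment at 0.991 to 0.992. Control has no replicate 3, so differences from control are also given for replicates 1 and 2 alone. Of 7 measured B-lineage markers, 6 had a control mean above 8, with DNTT highest at 13.09. No measured marker of the myeloid, T and NK, erythroid and platelet, neural, or fibroblast and epithelial lists did, and the highest of them was SYT1, a neural gene, at 7.67.

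None of the 10 tubulin genes passed the test with miR-99a, miR-100 or the combination, and neither did any other gene, in the fit over all arrays without the replicate number. In limma's test, with an adjusted p under 0.05 as the threshold, 0 of 10 tubulin genes passed in each of the 3 comparisons with control. The background was 0.0% of 19775 genes in each. With the replicate number as a block, 5, 7 and 863 genes passed (0.0253%, 0.0354% and 4.36%), and 0 of the 10 tubulin genes. That block also ties control to treated arrays of the same number, which are not taken as paired here. Without the block, all limma adjusted p-values of tubulin genes against control were 0.9998 or above. An unadjusted p under 0.05 was reached by 0, 0 and 2 of the 10 with miR-99a, miR-100 and the combination, against 1.0%, 1.54% and 3.66% of all genes. The 10 genes had a median difference of 0.019 (miR-99a), 0.010 (miR-100) and 0.029 (combination), beside -0.006, -0.008 and -0.004 over all genes. The 95% intervals of the 30 differences lay between -0.45 and 0.37, that is 0.733-fold and 1.29-fold, and shifts within these bounds were not resolved. In bulk RNA, fewer cells expressing a gene and less of its RNA per cell cannot be told apart.

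**Figure D1:**
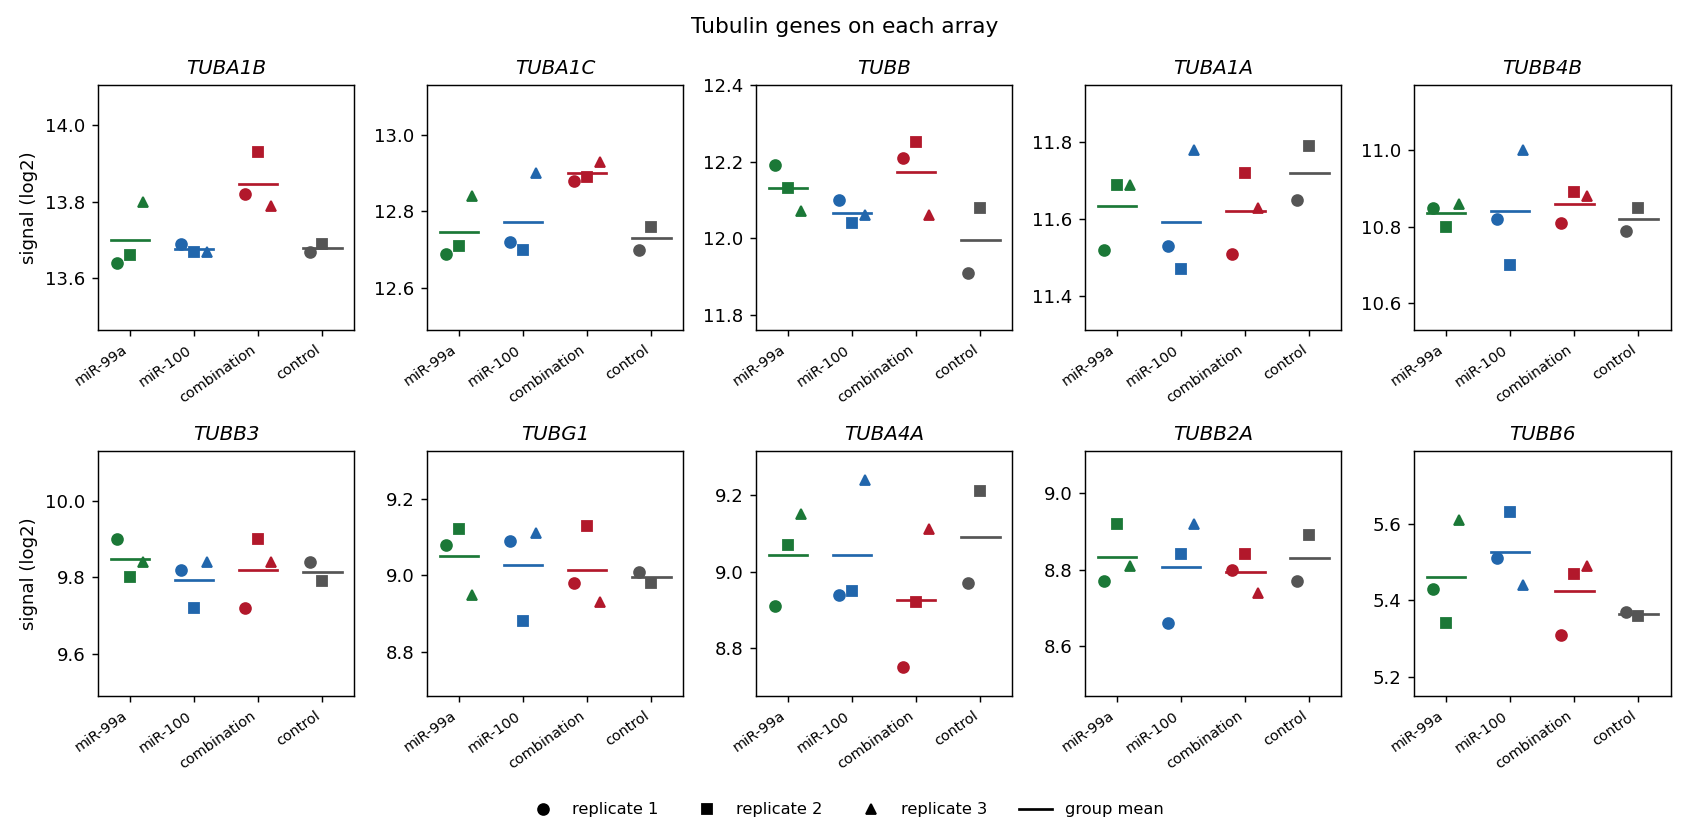
Log2 signal of the 10 tubulin genes on each array, in miR-99a, miR-100, combination and control cells. Symbols mark the replicate number, lines mark group means, and each panel spans the same height in log2 units. TUBA1B and TUBA1C in combination cells lie above both control arrays, and TUBA4A is highest in replicate 3 of each treatment.

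TUBA1B, a widely expressed alpha-tubulin, did not overlap control with the combination. Its signal was 13.82, 13.93 and 13.79 on the combination arrays (replicates 1, 2 and 3), against 13.67 and 13.69 on the control arrays. With miR-99a it was 13.64, 13.66 and 13.80, and with miR-100 it was 13.69, 13.67 and 13.67. All combination arrays thus lay above both control arrays, while the single oligos overlapped control. Set against control, the difference was 0.17 ± 0.07 for the combination (SE, n = 3 against 2), 0.02 ± 0.07 for miR-99a and 0.00 ± 0.07 for miR-100. Leaving out each array in turn moved the combination value between 0.12 and 0.20. Other bright genes stood as high. The 68 genes of like signal had a median difference of 0.20 with the combination, and 63.2% of them had a larger one than TUBA1B. On the separate combination arrays their medians were 0.33, 0.33 and -0.09 relative to the control mean, where TUBA1B had 0.14, 0.25 and 0.11. After quantile normalization, which gives all arrays the same distribution, the difference of TUBA1B was 0.00 ± 0.11.

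TUBA1C, a close relative of TUBA1B, had 12.88, 12.89 and 12.93 on the combination arrays and 12.70 and 12.76 on the control arrays. With miR-99a it had 12.69, 12.71 and 12.84, and with miR-100 it had 12.72, 12.70 and 12.90. Again only the combination separated from control in every array. The difference was 0.17 ± 0.08 with the combination, 0.01 ± 0.08 with miR-99a and 0.04 ± 0.08 with miR-100. The 118 genes of like signal had a median of 0.05 with the combination, and 11% of them exceeded TUBA1C. Its own value was 0.08 ± 0.12 after quantile normalization. On replicates 1 and 2 alone, TUBA1C at 0.15 was level with its neighbours at 0.16. The separation from those neighbours lay in combination replicate 3, where TUBA1C had 0.20 relative to the control mean and their median was -0.18.

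**Figure D2:**
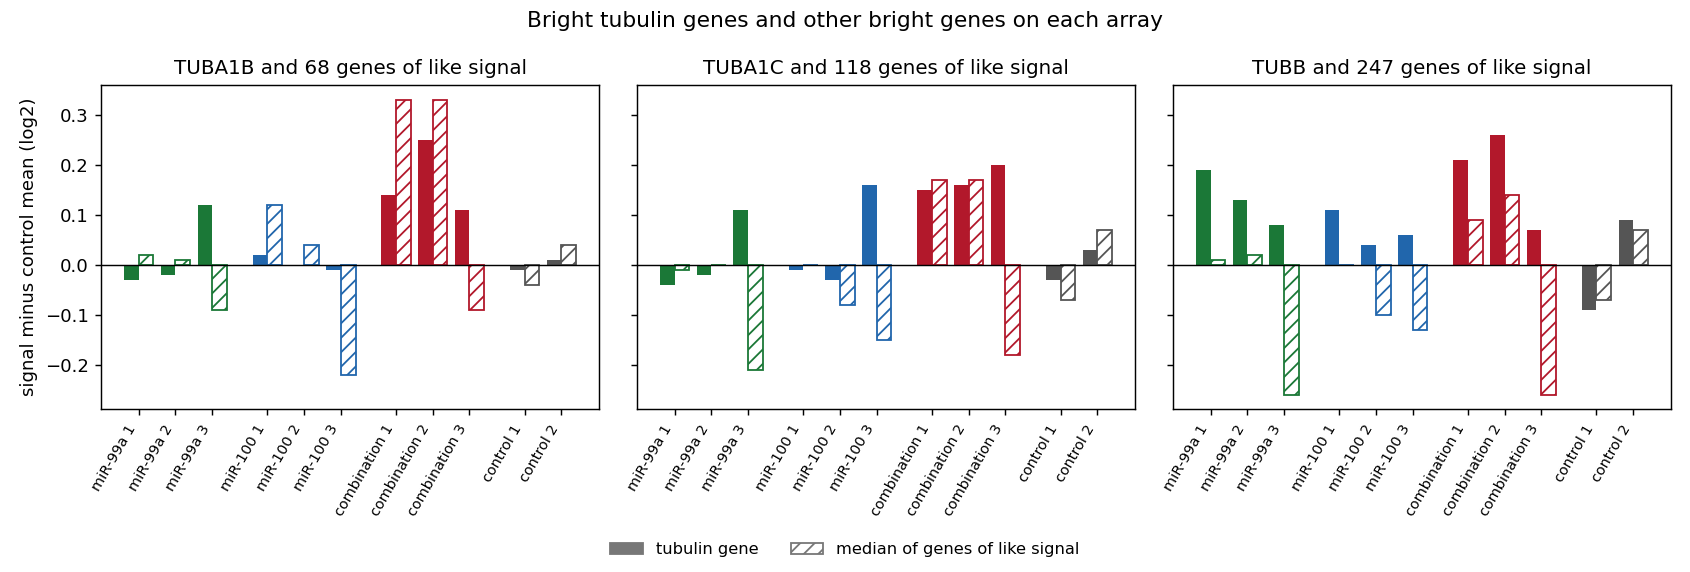
Signal minus the control mean (log2) on each array for TUBA1B, TUBA1C and TUBB (filled) and for the median of the other genes of like signal (hatched), in miR-99a, miR-100, combination and control cells. In replicates 1 and 2 of the combination the bright genes around TUBA1B have a median of 0.33 on each array, above TUBA1B at 0.14 and 0.25, and on the replicate 3 arrays of all treatments the hatched medians are negative while most filled bars are not.

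TUBA1A, an alpha-tubulin best known from developing neurons, had 11.52, 11.69 and 11.69 with miR-99a, 11.53, 11.47 and 11.78 with miR-100, and 11.51, 11.72 and 11.63 with the combination, against 11.65 and 11.79 in control. Every treatment overlapped control. The differences were -0.09, -0.13 and -0.10 (SE 0.11) with miR-99a, miR-100 and the combination, close to the medians of -0.07, -0.07 and -0.03 of the 387 genes of like signal. On replicates 1 and 2 alone the miR-100 value was -0.22 ± 0.09 (limma adjusted p 0.201).

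TUBA4A, an alpha-tubulin encoded without the terminal tyrosine that other alpha-tubulins carry, varied most over the 11 arrays (SD 0.15). It had 8.91, 9.07 and 9.15 with miR-99a, 8.94, 8.95 and 9.24 with miR-100, and 8.75, 8.92 and 9.11 with the combination, against 8.97 and 9.21 in control. Within each treatment replicate 3 was the highest array, and every treatment overlapped control. The difference from control was -0.16 ± 0.13 with the combination and -0.05 ± 0.13 with each single oligo. It moved between -0.28 without control replicate 1 and -0.04 without control replicate 2, so the control pair decides its size. The single-oligo values even turned to 0.07 without control replicate 2. On replicates 1 and 2 alone the combination value was -0.25 ± 0.09 (limma adjusted p 0.167), and the 2097 genes of like signal had a median of -0.09. The difference was -0.22 between the arrays numbered 1 and -0.29 between those numbered 2, though control and treated arrays are not taken as paired.

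TUBB, the main beta-tubulin of many dividing cells and so a direct partner of vincristine, had 12.19, 12.13 and 12.07 with miR-99a, 12.10, 12.04 and 12.06 with miR-100, and 12.21, 12.25 and 12.06 with the combination. The control arrays had 11.91 and 12.08. Control replicate 1 was below all other arrays, and control replicate 2 overlapped each treatment. Set against control, TUBB differed by 0.13 ± 0.08 (miR-99a), 0.07 ± 0.08 (miR-100) and 0.18 ± 0.08 (combination). Beside the 247 genes of like signal TUBB stood high, in the 1 probe set read of its 3. The medians of those genes were -0.08, -0.07 and 0.00, and 0.0%, 0.8% and 3.6% of them had a higher difference than TUBB. The differences from control depend on the control pair: they were 0.04, -0.02 and 0.09 without control replicate 1, and 0.22, 0.16 and 0.27 without control replicate 2. The neighbours moved with TUBB on the control arrays, so its excess over their median changed little, from 0.21, 0.14 and 0.18 over all arrays to 0.19, 0.13 and 0.16 without control replicate 1 and 0.22, 0.16 and 0.19 without control replicate 2. The share of neighbours above TUBB depends instead on replicate 3 of each treatment, and was 19.0%, 25.5% and 32.4% without that array, with an excess of 0.14, 0.13 and 0.13. Between arrays of the same number, TUBB differed by 0.28, 0.20 and 0.30 for number 1 and by 0.04, -0.05 and 0.17 for number 2, with miR-99a, miR-100 and the combination in that order. Control and treated arrays are not taken as paired, and these values follow the unlike control arrays, at 11.91 and 12.08.

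**Figure D3:**
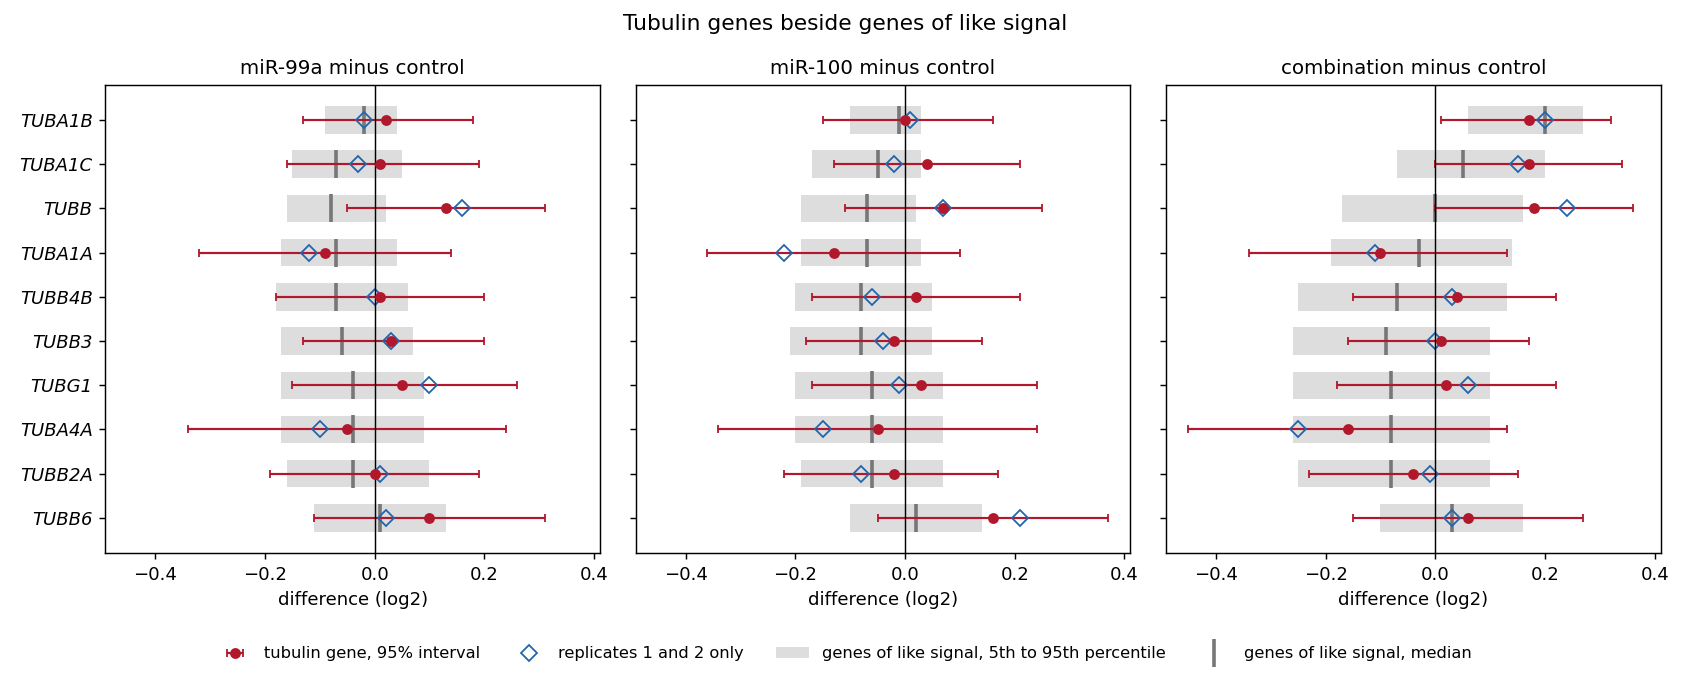
Log2 difference from control of each tubulin gene (circles, with 95% intervals) for miR-99a, miR-100 and the combination over all arrays, and over replicates 1 and 2 only (diamonds). Grey bars span the 5th to 95th percentile of the other genes of like signal and ticks mark their median. TUBB with miR-99a, at 0.13, lies beyond the bar that ends at 0.02, and TUBA1B with the combination, at 0.17, lies within the bar from 0.06 to 0.27.

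TUBB4B, a beta-tubulin of most tissues, had 10.85, 10.80 and 10.86 with miR-99a, 10.82, 10.70 and 11 with miR-100, and 10.81, 10.89 and 10.88 with the combination, against 10.79 and 10.85 in control. The groups overlapped, and the differences of 0.01, 0.02 and 0.04 (SE 0.09) were smaller than their errors. TUBB3, a beta-tubulin used as a marker of neurons and studied in resistance to microtubule drugs, had 9.90, 9.80 and 9.84 with miR-99a, 9.82, 9.72 and 9.84 with miR-100, and 9.72, 9.90 and 9.84 with the combination, against 9.84 and 9.79 in control. It varied least of the 10 (SD 0.06), and its differences were 0.03, -0.02 and 0.01 (SE 0.07). TUBB2A, another beta-tubulin, had 8.77, 8.92 and 8.81 with miR-99a, 8.66, 8.84 and 8.92 with miR-100, and 8.80, 8.84 and 8.74 with the combination, against 8.77 and 8.89 in control. Its groups overlapped too, with differences of 0.00, -0.02 and -0.04 (SE 0.09).

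TUBB6, a beta-tubulin, had a dim probe set, with 18.2% of all genes below it, and was the only one of the 10 under the median gene. It had 5.43, 5.34 and 5.61 with miR-99a, 5.51, 5.63 and 5.44 with miR-100, and 5.31, 5.47 and 5.49 with the combination, against 5.37 and 5.36 in control. All miR-100 arrays were above both control arrays, the other treatments overlapped control, and the miR-100 difference was 0.16 ± 0.10. Of the 7207 genes of like signal, 2.5% had a higher difference. At this brightness a signal may be mostly background, which these values cannot separate from expression.

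TUBG1, the main gamma-tubulin, had 9.08, 9.12 and 8.95 with miR-99a, 9.09, 8.88 and 9.11 with miR-100, and 8.98, 9.13 and 8.93 with the combination, against 9.01 and 8.98 in control. It overlapped control in every treatment, with differences of 0.05, 0.03 and 0.02 (SE 0.09).

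Counted together, arrays did not overlap control for 0 of 10 tubulin genes with miR-99a (background 15.4% of all genes), 1 of 10 with miR-100 (TUBB6; 13.4%) and 2 of 10 with the combination (TUBA1B and TUBA1C; 20.5%). These shares are near the background. The tubulin genes were above the median of their neighbours of like signal in 8, 9 and 7 of 10 cases, by a median of 0.081, 0.076 and 0.068. The 3 comparisons share the control arrays, so these counts are not independent of each other. They also use replicate 3, which control lacks. On replicates 1 and 2 alone, TUBA1A and TUBA1B were below the median of their neighbours with each treatment. TUBA1C and TUBA4A were below it with miR-99a and the combination. With the combination TUBB6 was level with its neighbours, at 0.03 beside 0.03. All other tubulin values were above that median. For the combination TUBB had 0.24 beside a neighbour median of 0.11. TUBA1B had 0.20 beside 0.33 and TUBA1A -0.11 beside 0.07, so the direction was mixed.

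The treatments were also set against each other, without use of the control arrays. For miR-100 against miR-99a, whose oligos share a seed, 0 of 10 tubulin genes passed limma's test (background 0.0%). The differences lay between -0.06 and 0.06, and their 95% intervals between -0.26 and 0.26. For the combination against both single oligos averaged, 0 of 10 passed as well (background 0.0%). TUBA1B was higher by 0.15 ± 0.06 and TUBA1C by 0.14 ± 0.06 in the combination, both with an adjusted p of 0.9998. Their neighbours of like signal had medians of 0.21 and 0.12, and after quantile normalization TUBA1B stood at -0.02 and TUBA1C at 0.01. An unadjusted p under 0.05 was reached by 194 of 19775 genes for miR-100 against miR-99a, among them 0 of the 10 tubulin genes. For the combination against the single oligos it was reached by 451 of 19775 genes, among them 2 of the 10. Arrays of the same number deviated together across treatments, but this cannot show that numbers 1 and 2 mark pairs. With the replicate number as a block, 1 gene passed in each comparison (background 0.00506%). These were ND6 at -0.39 and ANPEP at 0.43, neither a tubulin and both named after their values were seen.

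Bright probe sets of a gene gave like values against control over all arrays, and those of TUBB disagreed between replicate numbers. The 5 bright probe sets of TUBA1B gave combination differences from control of 0.17 to 0.22, and its dim sixth, with a mean of 5.25, gave 0.04. Both probe sets of TUBA1C agreed, at 0.17 and 0.18. The 3 probe sets of TUBB gave 0.18, 0.16 and 0.12. Between replicate numbers the bright sets of TUBA1B gave 0.02 to 0.05 and those of TUBA1C 0.12 and 0.14. For TUBB the probe set used, 212320_at, gave -0.09 between replicate 3 and replicates 1 and 2 of the treatments, while 211714_x_at gave 0.16 and 209026_x_at gave 0.20. On miR-100 replicate 3 these others read 11.92 and 11.38, against 11.56 and 11.56, and 10.98 and 10.95, on miR-100 replicates 1 and 2. The probe set 212320_at read 12.06 there, against 12.10 and 12.04. The control arrays read 11.58 and 11.72 for 211714_x_at and 11.04 and 11.14 for 209026_x_at. Both of these sets were thus below control on miR-100 replicates 1 and 2. For 212320_at control read 11.91 and 12.08, and this set was not below both. The place of TUBB among its neighbours was read from 212320_at alone. The suffix _x_at marks sets with probes that can match several transcripts. It is carried by the sets used for TUBA1B, TUBA1C, TUBB3 and TUBB4B, and TUBA1A has an _s_at set, which matches several transcripts as a whole. Signal among these near-identical isotypes may therefore be shared, and attribution to 1 isotype is uncertain.

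**Figure D4:**
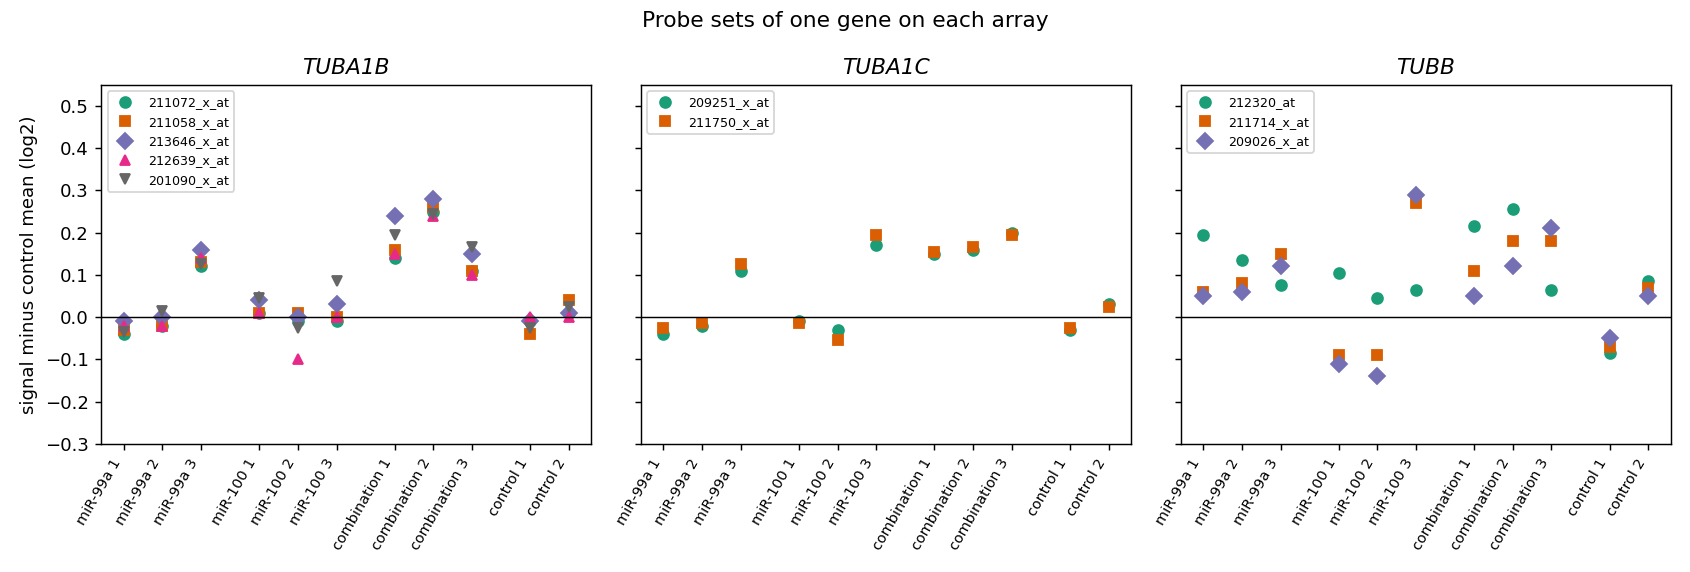
Signal minus the control mean (log2) on each array for every probe set of TUBA1B, TUBA1C and TUBB with a mean above 8, in miR-99a, miR-100, combination and control cells. Probe sets of TUBA1B and TUBA1C move together, and on miR-100 replicate 3 the 2 _x_at sets of TUBB lie above 212320_at.

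The 1 tubulin gene that passed on the deposited scale did so between replicate numbers. TUBA4A was higher in replicate 3 than in replicates 1 and 2 of the treatments. It had 9.15, 9.24 and 9.11 in replicate 3 (miR-99a, miR-100 and combination), against 8.75 to 9.07 in replicates 1 and 2, without overlap. The difference was 0.25 ± 0.07 (limma adjusted p 0.00309, 9 arrays with treatment as a covariate), and it passed in 9 of 9 fits that left out 1 array, at 0.22 to 0.29. That made 1 of 10 tubulin genes, against a background of 29.3% of all genes, dim ones included. That replicate 3 stands apart was known from earlier results of these data. The 2097 genes of like signal had a median of 0.13, and 31.3% of them had a higher difference than TUBA4A.

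In replicate 3 the bright isotypes lay above the median of other bright genes. TUBA1B differed by 0.02 ± 0.07 (13.75 in replicate 3, against 13.74 in replicates 1 and 2), and its neighbours of like signal by a median of -0.26. TUBA1C had 0.12 ± 0.06 beside -0.18, TUBA1A had 0.13 ± 0.07 beside -0.21, and TUBB4B had 0.10 ± 0.07 beside -0.12. TUBB had -0.09 ± 0.06 beside -0.22. None of these 5 passed on the deposited scale. With quantile normalization, 6 of 10 tubulin genes passed (background 31.4%): TUBA1A at 0.30, TUBA1C at 0.28, TUBB4B at 0.26, TUBA1B at 0.24, TUBA4A at 0.19 and TUBB at 0.13. TUBB thereby changed sign, and its limma adjusted p was 0.0463. The background holds dim genes too, while 9 of the 10 tubulin genes were at or above the median gene. On the deposited scale a fit of genes at or above that median called 5641, beside 5794 in the fit of all genes. The former held fewer genes, so the share it called was larger, and it called 1 tubulin gene. No such fit was made after quantile normalization. The 6 of 10 can therefore not be read as more than other genes of this level. All 10 differences on the deposited scale lay within the 5th to 95th percentile of genes of like signal.

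**Figure D5:**
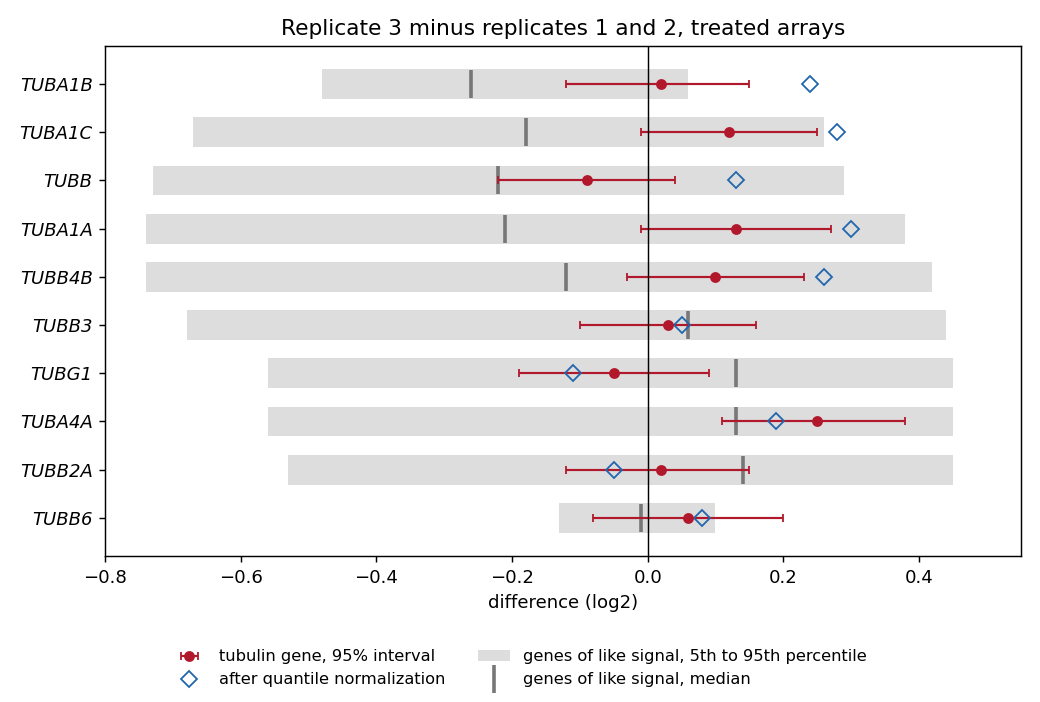
Log2 difference between replicate 3 and replicates 1 and 2 of the treated arrays for each tubulin gene (circles, with 95% intervals), and after quantile normalization (diamonds), over the 5th to 95th percentile (grey bars) and median (ticks) of the other genes of like signal. TUBA4A at 0.25 is the gene whose interval on the deposited scale lies above 0, and the ticks of the bright genes TUBA1B, TUBA1C, TUBB and TUBA1A lie between -0.26 and -0.18.

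Genes whose pattern over the 11 arrays was most like that of TUBA4A and TUBA1A, the most variable of the tubulin genes above the median gene, were sought by the mean absolute difference of values centred on each gene's mean. For TUBA4A these were MRPS11 (0.032), DDB1 (0.034) and PRMT2 (0.034), where the median over the genes searched, those at or above the median gene, was 0.12. For TUBA1A they were SOCS7 (0.026), TAOK1 (0.028) and KLHDC2 (0.031), where the median was 0.105. In these 6 genes and in TUBA4A, miR-100 replicate 3 was the highest array, and in TUBA1A it was next to control replicate 2 (11.78, against 11.79).

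Genes that act on tubulin were examined as 5 lists, and 0 of their genes passed limma's test over all arrays with any treatment against control (background 0.0%). Of all genes, 53.0%, 54.0% and 51.8% had a negative difference with miR-99a, miR-100 and the combination, and 49.7%, 54.3% and 50.4% on replicates 1 and 2 alone. The other tubulins, 8 measured of 12, had median differences of 0.040 (miR-99a), 0.079 (miR-100) and 0.114 (combination), the order used for every list, and 0.066, 0.105 and 0.077 on replicates 1 and 2 alone. TUBG2, a second gamma-tubulin gene, had 0.14, 0.20 and 0.14 (SE 0.07), and TUBAL3, an alpha-tubulin-like gene, had 0.04, 0.12 and 0.18 (SE 0.09). TUBB4A, with a mean of 6.16, had 0.20, 0.18 and 0.15 (SE 0.14). On replicates 1 and 2 alone it had the largest values of these 8, at 0.31, 0.26 and 0.27 (limma adjusted p 0.205, 0.114 and 0.0828). There 3 of the 8 were negative with each treatment. Genes for tubulin folding and dimer assembly, 19 measured of 21, include the prefoldin and chaperonin subunits and the tubulin cofactors. Their medians were -0.067, -0.093 and -0.090, negative for 17, 16 and 15 of the 19, and -0.011, -0.026 and -0.044 after quantile normalization. On replicates 1 and 2 alone they were -0.015, -0.166 and -0.135, negative for 11, 16 and 13. The list was not set beside genes of like signal, and its genes differ in level, with PFDN1 at a mean of 8.05 and TBCA at 12.59. The prefoldin subunit PFDN4 has the mean of TUBB4B, 10.84. The 667 genes of like signal to TUBB4B had medians of -0.07, -0.08 and -0.07 over all arrays. On replicates 1 and 2 alone these medians were -0.01, -0.12 and -0.01, and the list was lower with the combination (-0.135). PFDN4 itself had 0.27, 0.23 and 0.28 there. Whether the list follows brightness was not tested. The cofactor TBCB had -0.01, -0.07 and -0.16 (SE 0.11), and the prefoldin subunit PFDN1 had -0.02, -0.10 and -0.12 (SE 0.08).

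Genes of the gamma-tubulin ring complex, 9 measured of 10, had medians of 0.004, -0.027 and -0.022. On replicates 1 and 2 alone these were -0.076, -0.125 and -0.118, negative for 6, 8 and 8 of the 9. NEDD1, which brings the complex to centrosome and spindle, had -0.06, -0.09 and -0.23 (SE 0.11). The 19 genes for tubulin modification had medians of 0.015, -0.005 and 0.013, and 0.030, -0.017 and 0.020 on replicates 1 and 2 alone. HDAC6, an alpha-tubulin deacetylase, had 0.17, 0.11 and 0.21 (SE 0.09), and AGBL5, a carboxypeptidase acting on tubulin tails, had -0.09, -0.08 and -0.15 (SE 0.08). The 3 genes of tubulin messenger RNA autoregulation had medians of -0.004, -0.019 and -0.001, and -0.009, -0.095 and -0.053 on replicates 1 and 2 alone. Of these, TTC5, which recognises tubulin as it is made, had 0.00, 0.00 and 0.04 (SE 0.09), and CNOT11, a subunit of the deadenylase it leads to, had -0.07, -0.06 and -0.11 (SE 0.10).

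On replicates 1 and 2 alone, 290 genes passed for the combination against control (background 1.47%). They included 0 of the 10 tubulin genes and 2 genes of the lists, 1 of 19 measured folding genes and 1 of 9 ring complex genes. Of the 8 other tubulins, 19 modification genes and 3 autoregulation genes, 0 passed. The 2 that passed were TBCA, a cofactor that holds beta-tubulin for folding, at 0.35 (limma adjusted p 0.0384), and MZT1, a small subunit of the gamma-tubulin ring complex, at 0.34 (limma adjusted p 0.0427). Over all arrays the values of TBCA and MZT1 were 0.13 ± 0.23 and 0.00 ± 0.35. Both fell in replicate 3 relative to replicates 1 and 2 of the treatments, with differences of -0.54 for TBCA and -0.86 for MZT1. With replicate 3 as a term over all arrays, 443 genes passed for the combination (background 2.24%), again 0 of the 10 tubulin genes.

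Between replicate 3 and replicates 1 and 2 the lists moved in both directions, beside 17.1% of all genes higher and 12.2% lower, dim ones included. Of 19 folding genes, 10 rose and 5 fell in replicate 3. The falls included the prefoldin subunits PFDN4 (-0.88), VBP1 (-0.57) and PFDN5 (-0.51). Of 9 ring complex genes, 6 rose, with TUBGCP5 and the recruiting factor CDK5RAP2 at 0.40 and TUBGCP6 at 0.37, and MZT1 fell. Of 19 modification genes, 5 rose and 3 fell. Among them AGTPBP1, which removes glutamates from tubulin tails, stood at 0.31 and TTLL5, which adds them, at 0.29, while SVBP, partner of the enzymes that remove the terminal tyrosine, had -0.51 and the polyglutamylase subunit TPGS1 -0.48. Of 8 other tubulins, TUBD1 (0.25) and TUBE1 (0.18), the delta- and epsilon-tubulins of centrioles, rose and TUBB4A (-0.32), a brain beta-tubulin, fell. Of the 3 autoregulation genes SCAPER rose, at 0.31. The part that the source of replicate 3 plays in these values was not tested.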

How the data were processed

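RNA of 11 samples was hybridized to Affymetrix whole-genome arrays. The authors deposited log2 signals, a unit judged from the lowest value, 4.398, and the highest, 14.839. Array medians of 5.95 to 5.984 show scaling between arrays, and for summarisation, background and normalization the method is not given in the sources used here. Of 54675 probe sets, 62 control sets, 1801 with several symbols and 11721 with none were left out. The remaining 41091 gave 19775 genes, each read from its probe set with the highest mean, and gene identifiers of 41037 of these sets matched RefSeq (GRCh38.p14). The number of arrays limits the precision.

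Group means were fitted over 11 arrays with limma 3.58.1 (R 4.3.3, lmFit and eBayes), with Benjamini-Hochberg adjustment over all genes in each of 6 comparisons, called at an adjusted p under 0.05. P-values are 2-sided. In the comparison of replicate 3 the 9 treated arrays were fitted with treatment as a covariate. The fit was tested on simulated data. Alternatives were quantile normalization, genes at or above the median level, the mean of all probe sets, leaving out each array, the replicate block, replicates 1 and 2 only, and replicate 3 as a term. Same-numbered arrays of different treatments deviated together in 9 of 9 pairs (r 0.168 to 0.816, minimum 0.1). Arrays of different numbers were not compared, and replicate 3 stood apart in every treatment. This check therefore cannot show that numbers 1 and 2 mark pairs. Control and treated arrays gave -0.152 to 0.438 and are not taken as paired. The replicate block was fitted over all 11 arrays, control included.

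All 10 tubulin genes are named. From each other list, written from general knowledge, at most 4 genes that passed in any comparison were named by p, and the 2 with the smallest p against control. The likeness rule took the 2 most variable tubulin genes above the median of all genes and the 3 nearest genes to each, searched at or above the same median. Without a probe set of their own symbol alone were TUBA3C, TUBA3D, TUBA3E, TUBB8, PFDN6, TCP1 and MZT2A. The members, lists and tests were chosen with earlier results of these data known.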

Additional observations from a re-analysis of the deposited data

How the results depend on the processing

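No tubulin gene passed in the 5 comparisons of treatments under any alternative, and leaving out each array in turn left 0 genes of the whole table past the threshold in each of them. With the replicate block 5 genes of the whole table passed for miR-99a, 7 for miR-100 and 863 for the combination against control, and 1 each for miR-100 against miR-99a and for the combination against the single oligos, all beside 0 without the block. The tubulin gene nearest to the threshold in that fit was TUBA4A with the combination, at -0.24 (limma adjusted p 0.0883). The block also ties control to treated arrays of the same number, which are not taken as paired. Replicates 1 and 2 only gave 290 genes for the combination against control and 1 for miR-100 against miR-99a (FOLR1, -0.73, named after its value was seen). Replicate 3 as a term gave 443 for the combination. Quantile normalization raised the tubulin genes called between replicate 3 and replicates 1 and 2 to 6, against 1 on the deposited scale, and turned TUBB to 0.13. The count over all genes there ran from 4614 to 5894 when 1 array was left out. Small differences of uncalled tubulin genes changed sign in some alternatives, counting each gene in each comparison of each fit as 1 value. Such changes numbered 36 over all fits without 1 array, 11 with quantile normalization and 8 on replicates 1 and 2 only. The cause of these changes was not tested, except that fits on fewer arrays have fewer samples. With 2 control arrays, the control pair limits every comparison with control.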
